A study of Mus musculus with 16 samples.

Results

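Cytosolic ribosomal proteins are encoded by genes whose symbols start with Rpl (large subunit) or Rps (small subunit), with Rpsa and the stalk genes Rplp0, Rplp1 and Rplp2 among them. They were followed here in the cerebral cortex of mice that carried or were labelled as lacking Neil1, with or without gamma radiation. Members were taken by symbol alone, as the RefSeq gene table of GRCm38.p6 spells it. Symbols ending in l, S6 kinase and Rps19 binding protein genes and pseudogenes were left out. This gave 81 genes of the 17436 tested, 49 of the large and 32 of the small subunit, read by 142 probes. Of the 81, 77 have a plain subunit name. The other 4 are Rpl22l1 and Rpl7l1, which are paralogues, and Rpl37rt and Rps23rg1, which are named as retrotransposed copies. The gene table holds 86 matching symbols, and 5 of them had no probe on the array. The symbol rule itself uses no measured value. A probe also had to be well above background on at least 4 arrays, which all 142 probes met. The family and its rule were chosen with earlier results of these data known.

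Each of 16 male mice gave 1 single-colour Agilent array of cortical RNA, with 4 mice in each of 4 groups: wild-type littermates after a sham exposure, wild-type littermates after 6 Gy, Neil1-/- mice after a sham exposure, and Neil1-/- mice after 6 Gy. Per the labels, all were on a C57BL/6 background and 28 to 42 weeks old. The whole body received the radiation, at 0.74 Gy/min, and tissue was taken 20 h later. All groups share BrdU injections of 100 mg/kg, a label for newly copied DNA, before the exposure and 2 h later. The labels do not give the part of Neil1 that was deleted.

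Ribosomal proteins are made in nearly equal numbers and assembled with ribosomal RNA in the nucleolus into a small subunit, which decodes the message, and a large subunit, which joins amino acids. Their messages are abundant in every cell, and most begin with a run of pyrimidines right at the cap, the TOP motif, through which mTOR signalling controls their translation. Translation control of that kind need not alter the amount of message that an array measures. After nucleolar damage, free Rpl5 and Rpl11 bind the ubiquitin ligase Mdm2, which lets p53 accumulate.

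The start regions of 6 members are printed to show the 2 short words searched for in all promoters of the family. Rplp0 is an example with neither word, and Rps27l, a paralogue outside the family, is added because its values are set beside those of Rps27. Each line gives the 25 bases before and the first 25 bases of the transcript from RefSeq (build GRCm38.p6), read 5′ to 3′ on the gene's strand. Capitals mark CTTTC, a word found in pyrimidine-rich starts, and CGGAAG, the core of sites for ETS-family factors. The 2 words do not overlap in these lines. The marked CTTTC of Rpl4 and Rpl5 lies before the start, and only the later one of Rps27 lies within the transcript. A marked CTTTC is therefore not in itself a TOP motif at the cap. The Rps27 transcript begins with a run of pyrimidines that holds its later CTTTC. The Rps6 transcript begins with a run of pyrimidines that holds no CTTTC and is not marked.
Rpl4, chr9:64173362-64173411, plus strand: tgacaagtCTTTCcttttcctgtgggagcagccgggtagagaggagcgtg
Rpl5, chr5:107900503-107900552, plus strand: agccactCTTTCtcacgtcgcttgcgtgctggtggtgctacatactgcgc
Rpl11, chr4:136053369-136053418, minus strand: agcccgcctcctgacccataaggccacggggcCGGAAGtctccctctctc
Rps6, chr4:86857343-86857392, minus strand: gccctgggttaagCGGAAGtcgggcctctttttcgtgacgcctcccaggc
Rps27, chr3:90213624-90213673, minus strand: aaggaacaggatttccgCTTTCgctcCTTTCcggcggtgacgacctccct
Rplp0, chr5:115559442-115559491, plus strand: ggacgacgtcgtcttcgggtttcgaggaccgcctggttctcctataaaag
Rps27l, chr9:66946061-66946110, plus strand: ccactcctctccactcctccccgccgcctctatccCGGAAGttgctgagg

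A second listed start of Rps27l held neither word. The promoter table held 61 of the 81 members, with 71 promoters of 300 bases. CTTTC lay within 25 bases of the start on the gene's own strand in 19 of the 71 (26.8%), against 6.75% of all 32851 promoters in the table. On the opposite strand it lay there in 8.45% of the members' promoters and 6.10% of all. CGGAAG was present on either strand of the whole 300-base window in 42 of the 71 (59.2%), against 16.9% of all promoters. A match is a run of letters and not a shown site, and promoters of 1 gene can overlap.

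Before the results, 3 features of the arrays bear on all comparisons. The 8 wild-type arrays lay on 1 slide with 1 scan time and the 8 labelled knockout arrays on the other, so genotype and slide cannot be told apart, while irradiated and sham arrays of a genotype shared a slide but lay in different rows of it. The replicate number was the slide column on all 16 arrays. Array brightness also differed. Sham wild-type mice had a 75th percentile intensity of 2415 ± 274 and irradiated ones 2301 ± 235, against 1778 ± 343 and 1333 ± 301 in the labelled knockout (SD, n = 4 each). The Neil1 probe was brighter on the labelled knockout arrays, 2.42-fold in sham and 2.62-fold after radiation (p = 0.0286 in both by two-sided exact permutation, which can go no lower with 4 arrays a side), and its place in the transcript is not known, so it does not check the labels. Of markers of the labelled tissue, all 9 measured genes of excitatory cortical neurons were well above background on all 16 arrays, as were 6 of 6 each for interneurons, astrocytes, oligodendrocytes, microglia and endothelium. Of 7 lymphocyte markers, Cd3g and Cd79a were well above background on none. Markers of nearby tissue were also well above background on all arrays, in 6 of 7 for striatum and 5 of 7 for choroid plexus. Of 6 red blood cell markers on the array, 3 were. Summed striatal levels spread most in irradiated wild-type mice, from 4.97 to 7.59. Summed red blood cell levels spread most in sham labelled knockout mice, from 0.72 to 5.88. The part of these lists in the ribosomal protein values was not tested.

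Ribosomal protein probes were among the brightest on the array and among the steadiest. Values are the log2 of the processed signal minus that array's 75th percentile of it, so 0 is the brightness of that percentile. Over 16 arrays the members had a median level of 5.22, with the middle 50% between 4.76 and 5.73, and 78 of 81 lay above 0. Of the 1146 genes at 4 or more, 76 were members. The dimmest was the probe for Rpl37, at -3.57, and the brightest that for Rpl37rt, at 6.44. Probes differ in how well they bind, so these levels rank probes and not messages, and whether the Rpl37rt and Rps23rg1 probes also bind the messages of Rpl37 and Rps23 was not tested. The residual SD between mice of a group had a median of 0.126 over members and was highest, at 0.267, for Rpl14. It was 0.245 over all genes and 0.165 over the 1070 other genes at a level of 4 or more. The members' SD was below the all-gene median in 79 of 81.

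Radiation moved no ribosomal protein gene past the test in either genotype, and the intervals were narrow. In wild type, 0 of 81 members were called by limma with Benjamini-Hochberg adjustment over all genes (adjusted p under 0.05), against 0.0746% of all genes tested. At an unadjusted p under 0.05 there was 1 member, against 1.97% of all genes, and in 0 members did the irradiated and sham arrays fail to overlap, also against 1.97%. The median difference between irradiated and sham was 0.047 on the log2 scale, with 71 of 81 members above 0, where all genes had a median of 0.014 and 54.5% above 0. Leaving out 1 array at a time gave medians of 0.012 to 0.070. Single members ran from -0.16 for Rps23rg1 to 0.27 for Rps20. Quantile scaling, which gives every array the same distribution, put the median at 0.005, with 44 of 81 above 0 and 0 called (0.0631% of all genes). The 95% interval of the difference lay within 1.5-fold in either direction for all 81 members with both scalings, and for 64.3% of all genes with the 75th percentile.

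In labelled knockout mice the differences were also small. Again 0 of 81 members were called (0.12% of all genes), 2 had an unadjusted p under 0.05 (4.63% of all genes), and in 0 did the arrays fail to overlap (2.19%). The median difference was 0.012, with 45 of 81 above 0, and 0.000 with quantile scaling, with 41 above 0 and 0 called (0.103% of all genes). Leaving out 1 array at a time gave medians of -0.046 to 0.083, with the sign turned without irradiated replicate 3 or 4 or sham replicate 1 or 4, and the highest without irradiated replicate 1. Single members ran from -0.24 for Rpl23a, which sits beside the exit of the nascent chain, to 0.32 for Rps20. All 81 intervals again lay within 1.5-fold. With both genotypes averaged, 0 of 81 were called (0.304% of all genes), and the test of whether the radiation effect differed between genotypes called 0 members and 0 genes in all (0%), with 0 members and 1.27% of all genes at an unadjusted p under 0.05. The differences in the 2 genotypes, which share no arrays, had a correlation across the 81 genes of 0.37, against 0.20 across all genes, and the same sign in 45 of 81 (55.6%, the same share as over all genes). These are descriptions, since genes are not independent replicates. With quantile scaling 1 member in each genotype had arrays that did not overlap, Rps21 lower in wild type and Rplp1 lower in labelled knockout (0.855% and 1.14% of all genes lower).

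**Figure D1:**
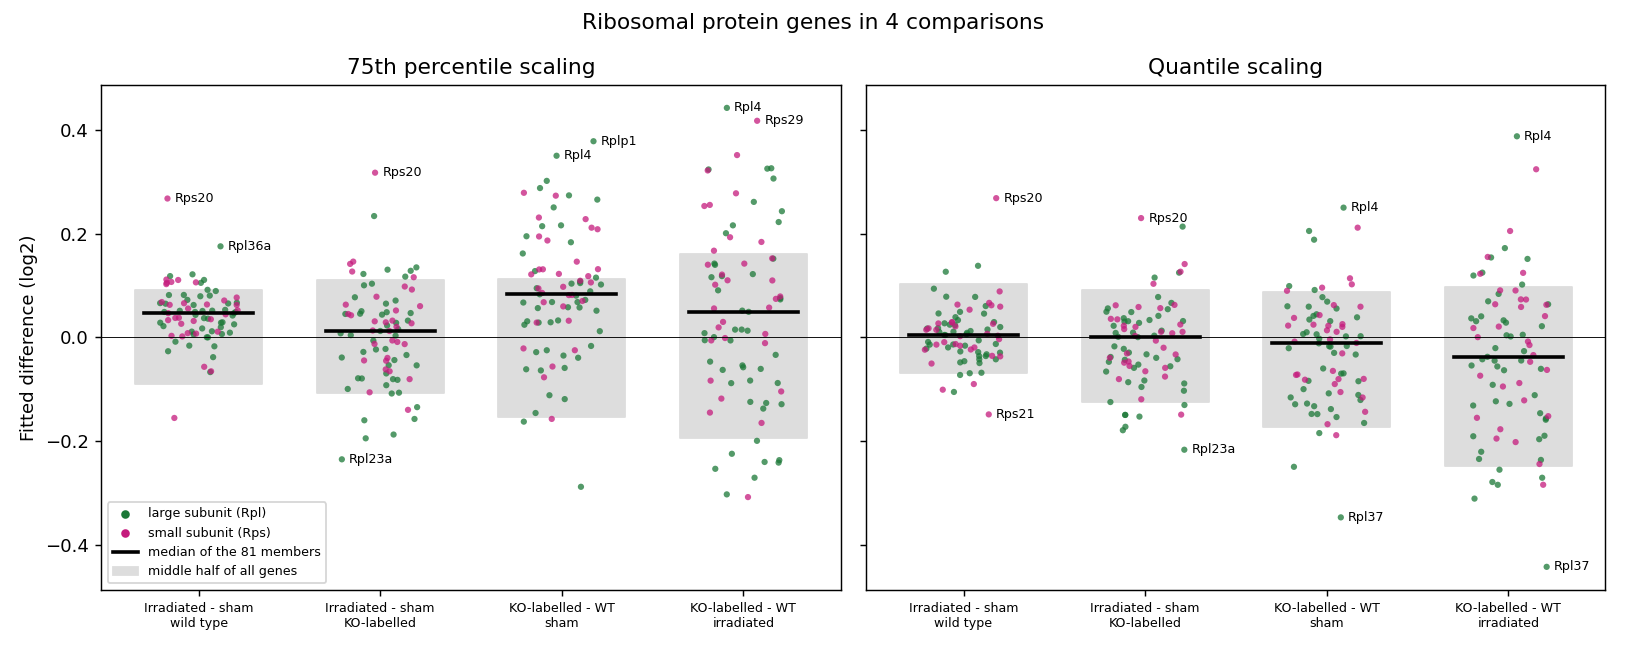
Fitted log2 difference of each of the 81 ribosomal protein genes (points) in 4 comparisons with 75th percentile scaling (left) and quantile scaling (right), with the median of the members (black line) and the middle 50% of all 17436 genes (grey). On the left radiation differences lie between -0.24 and 0.32 and genotype differences after radiation between -0.31 and 0.44 (-0.44 to 0.39 on the right), with a genotype median that is above 0 on the left and below 0 on the right.

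Rps20, a protein of the head of the small subunit, had the largest difference with radiation in both genotypes. Its wild-type values were 5.43, 5.45, 5.42 and 5.59 in sham and 5.58, 5.70, 5.76 and 5.92 after radiation. Its labelled knockout values were 5.62, 5.82, 5.52 and 5.85 in sham and 5.75, 6.14, 6.02 and 6.17 after radiation. The groups overlapped in both genotypes, in wild type by 1 sham array only. Averaged over genotypes, the difference was 0.29 ± 0.08 (SE), and it did not pass the test (limma, Benjamini-Hochberg adjusted p = 0.343). It was 0.25 with quantile scaling (adjusted p = 0.457) and 0.39 after normexp background correction, where it passed (adjusted p = 0.0278). A single probe read this gene.

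Rps27 and its paralogue Rps27l, which encode closely related small-subunit proteins, differed in their response. Rps27l is a known p53 target and lies outside the family as defined here. Rps27l values in wild type were 1.61, 1.58, 1.76 and 1.68 in sham and 2.18, 2.33, 2.36 and 2.38 after radiation. In labelled knockout they were 1.76, 1.77, 1.66 and 1.53 in sham and 2.14, 2.29, 2.15 and 2.49 after radiation, so all irradiated arrays lay above all sham arrays in both genotypes. It rose by 0.66 ± 0.10 (SE) in wild type and 0.59 ± 0.10 in labelled knockout (limma, Benjamini-Hochberg adjusted p = 0.0131 and 0.0351). Rps27 itself had 5.39, 5.47, 5.44 and 5.48 in sham wild-type mice and 5.48, 5.40, 5.50 and 5.57 after radiation. The labelled knockout mice had 5.43, 5.65, 5.51 and 5.53 without and 5.38, 5.68, 5.56 and 5.74 with radiation. The irradiated and sham arrays of Rps27 overlapped in both genotypes, with differences of 0.04 (95% interval -0.15 to 0.24) and 0.06 (-0.13 to 0.25). The wild-type interval of Rps27 ends below that of Rps27l, which runs from 0.45 to 0.87, as does the labelled knockout one (0.38 to 0.80). The difference between the 2 genes was not itself tested.

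**Figure D2:**
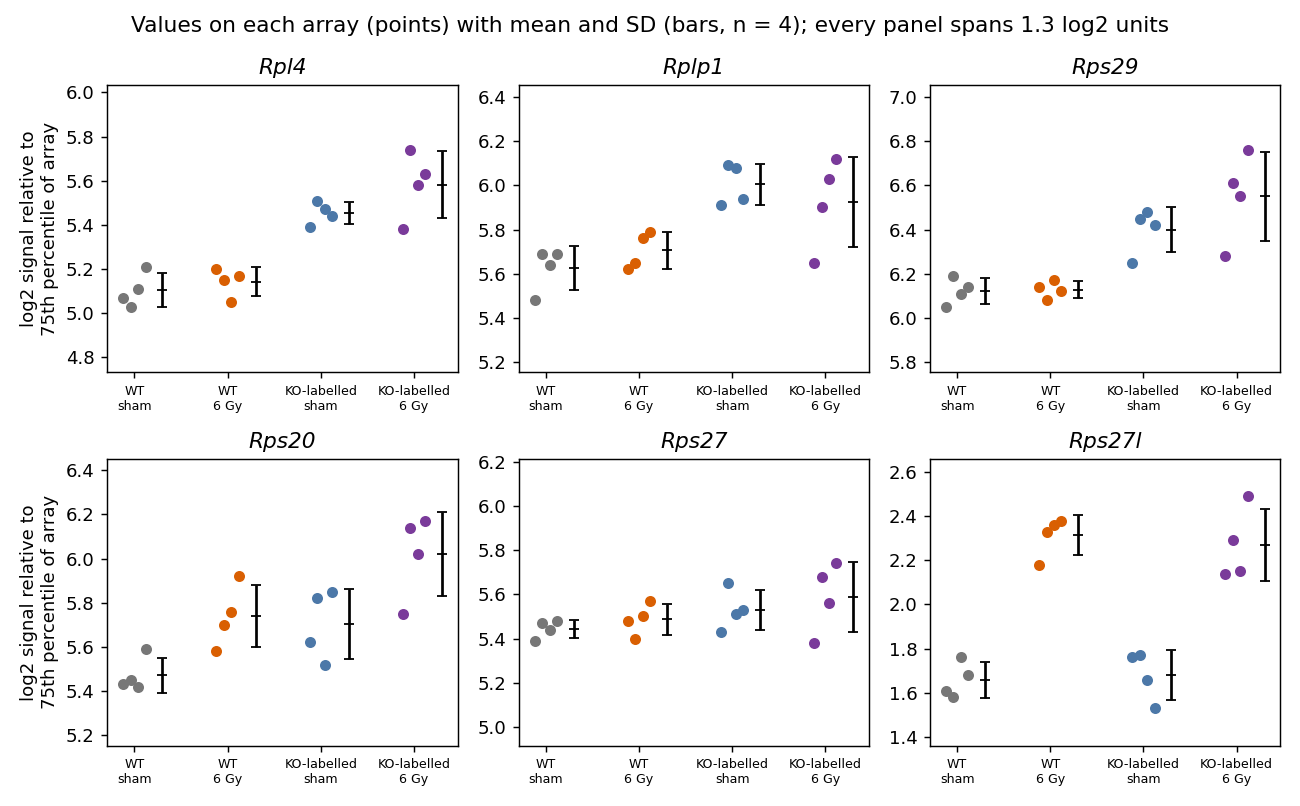
Values on each array (points) for Rpl4, Rplp1, Rps29, Rps20, Rps27 and Rps27l, as log2 signal relative to the 75th percentile, with the mean and SD of 4 mice beside each group and 1.3 log2 units on every vertical axis. Rps27l is separated by radiation in both genotypes, Rpl4 and Rps29 by genotype, and Rps27 by neither.

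Members with known second roles also had small radiation differences. Rpl5 and Rpl11, the Mdm2-binding pair, differed by -0.04 (95% interval -0.28 to 0.20) and 0.00 (-0.29 to 0.29) in wild type and by 0.02 and 0.00 in labelled knockout. The value of Rpl11 on 1 wild-type sham array was missing, so 3 arrays stand for that group. Rps6, the substrate of S6 kinase, differed by 0.03 in wild type and -0.06 in labelled knockout. Rps3, which has also been studied as a DNA repair nuclease, differed by 0.08 and 0.01, and Rpsa, which also serves as a laminin receptor, by 0.07 and 0.08. Rpl13a, which silences a set of inflammatory messages when released from the ribosome, differed by -0.07 and 0.04. Rpl22, whose paralogue Rpl22l1 is also a member, differed by 0.04 and -0.03. Rps19, the gene most often mutated in Diamond-Blackfan anaemia, differed by 0.11 and 0.09, and Rpl10, a late-joining protein of the large subunit, by 0.05 and -0.01. None of these passed the test in either genotype, and each adjusted p was above 0.9 (limma, Benjamini-Hochberg). Of the stalk, which recruits translation factors, Rplp0 differed by -0.01 and -0.16, Rplp1 by 0.08 and -0.08, and Rplp2 by 0.08 and 0.12.

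A marker of microglia moved with radiation on the same arrays. P2ry12, a purinergic receptor of resting microglia, fell by 0.62 in wild type and 0.76 in labelled knockout (limma, Benjamini-Hochberg adjusted p = 0.0357 and 0.00525), though with quantile scaling the first did not pass the test. The other 5 microglial markers were not called. Of 3 lymphocyte markers tested, Cd79b, part of the B cell receptor, fell by 0.74 with both genotypes averaged (adjusted p = 0.00409), not past the test in either genotype alone or with quantile scaling. The summed lymphocyte level overlapped between sham (-1.74 to -1.20) and irradiated (-1.78 to -1.05) wild-type mice, and between sham (-1.52 to -0.86) and irradiated (-1.50 to -1.14) labelled knockout mice. The summed level of the 6 microglial markers ran from 4.88 to 5.13 in sham and 4.52 to 4.87 in irradiated wild-type mice. The labelled knockout mice ran from 4.66 to 5.05 in sham and 4.45 to 4.66 after radiation. In bulk cortex, fewer cells of a type and less RNA per cell cannot be told apart, and the part of these markers in the ribosomal protein values was not tested.

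Between genotypes the members spread more widely, and the sign of their median depended on the scaling. In sham mice 0 of 81 members were called (0.0516% of all genes), and 8 had an unadjusted p under 0.05 (7.69% of all genes). The median difference, labelled knockout minus wild type, was 0.083 with 63 of 81 above 0, where all genes had -0.024 and 45.3% above 0. Under quantile scaling the members' median was -0.012, with 36 of 81 above 0 and 0 called (0.0688% of all genes). All 4 labelled knockout arrays lay above all 4 wild-type arrays for 9 members (2.73% of all genes), namely Rpl3, Rpl4, Rpl26, Rpl31, Rpl41, Rplp1, Rps9, Rps19 and Rps29. They lay below for 1, the dim Rpl37 probe (2.09% of all genes). Quantile scaling gave 4 above (1.94%) and 4 below (2.67%).

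Rplp1, a stalk protein, had the largest difference in sham mice with the 75th percentile (Rpl37, at -0.35, had it with quantile scaling). Sham wild-type mice had 5.48, 5.69, 5.64 and 5.69 and their labelled knockout counterparts 5.91, 6.09, 6.08 and 5.94, with no overlap. The difference was 0.38 ± 0.10 (SE) and did not pass the test (limma, Benjamini-Hochberg adjusted p = 0.377), and its other probe gave 0.37. After radiation the values were 5.62, 5.65, 5.76 and 5.79 against 5.65, 5.90, 6.03 and 6.12, which overlapped, and the difference was 0.22. Quantile scaling gave differences of 0.21 and 0.03.

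After radiation 1 member, Rpl4, was called higher in labelled knockout mice, against 0.82% of all genes called higher and 1.18% called in either direction. Rpl4 is a large-subunit protein that lines the exit tunnel of the nascent chain. Its values were 5.20, 5.15, 5.05 and 5.17 in irradiated wild type and 5.38, 5.74, 5.58 and 5.63 in irradiated labelled knockout, and 5.07, 5.03, 5.11 and 5.21 against 5.39, 5.51, 5.47 and 5.44 in sham. All 8 labelled knockout arrays thus lay above all 8 wild-type arrays. The difference was 0.44 ± 0.09 (SE), or 1.36-fold, after radiation (limma, Benjamini-Hochberg adjusted p = 0.0285). It was 0.35 ± 0.09 in sham, short of the test (adjusted p = 0.353). Under quantile scaling it was 0.39 after radiation (adjusted p = 0.0518) and 0.25 in sham. The call was lost without irradiated labelled knockout replicate 2, 3 or 4 (adjusted p = 0.0753, 0.0651 and 0.0868) and without irradiated wild-type replicate 2, 3 or 4 (0.0776, 0.116 and 0.0644), with differences of 0.39 to 0.45 in these fits. With the slide column as a block, 2 members were called after radiation, Rpl4 and Rps29. A single probe read Rpl4.

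Rpl4, Rplp1 and Rps25 are the 3 members that lie within 20 Mb of Neil1 in the gene table. Rps25, a small-subunit protein used by some viral internal ribosome entry sites, had differences of 0.21 in sham and 0.25 after radiation, with overlap in both. With quantile scaling its differences were 0.10 and 0.21, and the groups did not overlap after radiation. Of the 376 other genes tested in that window, 2.13% were called between genotypes in sham (1 higher and 7 lower) and 5.05% after radiation (5 higher and 14 lower), against 0.0516% and 1.18% of all genes. The median difference of these 376 was -0.04 in sham and -0.05 after radiation.

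No other member was called after radiation. An unadjusted p under 0.05 was reached by 18 of 81 (16.6% of all genes). Labelled knockout arrays all lay above wild-type arrays for Rpl4, Rpl31, Rps29 and Rps3a1 (4.3% of all genes) and all below for Rpl15 and Rpl23a (4.44% of all genes). Rps29, a zinc-binding protein of the small subunit, had values of 6.14, 6.08, 6.17 and 6.12 in irradiated wild type and 6.28, 6.61, 6.55 and 6.76 in irradiated labelled knockout. Its difference was 0.42 ± 0.10 (SE; limma, Benjamini-Hochberg adjusted p = 0.0572) with 75th percentile scaling and 0.09 with quantile scaling, and its other probes gave 0.38 and 0.20 with the 75th percentile. Rps3a1 had 4.95, 4.77, 4.57 and 4.81 against 5.13, 5.14, 5.08 and 5.15, a difference of 0.35, but its other probes gave 0.04 and -0.19. At the low end, Rps4x had 4.12, 4.30, 4.40 and 4.28 against 3.82, 3.88, 3.99 and 4.18, which overlapped, and a difference of -0.31 (adjusted p = 0.141). With quantile scaling the Rps4x groups did not overlap and the difference was -0.28. Rpl23a had 4.93, 4.85, 4.95 and 4.80 against 4.45, 4.58, 4.52 and 4.78, with no overlap, and a difference of -0.30 (adjusted p = 0.143). With quantile scaling the Rpl23a difference was -0.31, again with no overlap. Rpl10 differed by 0.00 with the 75th percentile and by -0.27 with quantile scaling, where its groups did not overlap. Rplp0, often used as a reference gene, differed by -0.27, while Rplp1 and Rplp2 differed by 0.22 and 0.14, none past the test.

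Read by their brightest probe, several other bright members had genotype differences that were smaller with quantile scaling. That scaling gives every array the same distribution, which by itself removes differences shared by the brightest probes. Rpl41, the smallest ribosomal protein, had 6.40, 6.02, 6.14 and 6.31 in irradiated wild type and 6.27, 6.62, 6.69 and 6.60 in irradiated labelled knockout, which overlapped. Its difference was 0.33 after radiation and 0.30 in sham, and 0.00 and 0.06 with quantile scaling. The other, dimmer Rpl41 probe gave 0.28 in sham and still 0.25 with quantile scaling. Rpl31, a large-subunit protein near the tunnel exit, had 5.78, 5.71, 5.82 and 5.83 against 5.90, 6.26, 6.15 and 6.14. Those groups did not overlap, and the difference was 0.32 (limma, Benjamini-Hochberg adjusted p = 0.0897), or 0.10 with quantile scaling. In sham, with the 75th percentile, this Rpl31 probe gave 0.27 and the other Rpl31 probe 0.11. Rps19 differed by 0.21 in sham and 0.19 after radiation, and by 0.02 and -0.01 with quantile scaling. Its other probe gave 0.06 in sham with the 75th percentile and 0.01 with quantile scaling.

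The retrotransposed copies and their parent genes are given side by side, and the difference between copy and parent was not tested. The Rpl37rt probe had 6.19, 6.25, 6.33 and 6.53 in irradiated wild type and 6.33, 6.74, 6.64 and 6.88 in irradiated labelled knockout, a difference of 0.33 with the 75th percentile and -0.04 with quantile scaling. The Rpl37 probe, dim on all arrays, had -3.32, -3.55, -3.42 and -3.35 against -3.83, -3.68, -3.47 and -3.61. These overlapped, with a difference of -0.24, or -0.44 with quantile scaling. Rps23rg1 differed by 0.32 after radiation and Rps23 by 0.06. Of the paralogues, Rpl22l1 differed by -0.08 and Rpl22 by 0.01, and Rpl7l1 by 0.24, which was 0.17 with quantile scaling. None of these passed the test. Rpl15, a large-subunit protein at the low end, had 4.46, 4.37, 4.36 and 4.34 in irradiated wild type and 4.05, 4.14, 4.27 and 4.19 in irradiated labelled knockout, with no overlap and a difference of -0.22 that did not pass (limma, Benjamini-Hochberg adjusted p = 0.291).

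The members' median after radiation was 0.049, with 49 of 81 above 0, against -0.031 for all genes. Leaving out 1 array at a time gave -0.011 (without irradiated labelled knockout replicate 4) to 0.121 (without replicate 1 of that group). Under quantile scaling it was -0.038, with 35 of 81 above 0, 0 members were called (0.551% of all genes), and 7 members lay wholly above (2.84%) and 10 wholly below (5.49%). Small-subunit genes had a median of 0.09 and large-subunit genes 0.01 with the 75th percentile, and -0.004 and -0.045 with quantile scaling. The 2 genotype comparisons, which share no arrays but share slides, had a correlation across the 81 genes of 0.87 (all genes 0.56), and 65 of 81 had the same sign in both (80.2%, against 73.5% of all genes). Under quantile scaling these were 0.85 and 66.

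With 75th percentile scaling the genotype difference moved with probe brightness, in members and in other genes. In sham, the 41 members with a level of 5 to 6 had a median difference of 0.10 and the 10 members at 6 or more 0.20. The 298 and 80 other genes of the same brightness had 0.12 and 0.25. The 25 members at 4 to 5 had -0.02, and 692 other genes 0.06. After radiation the members' medians in these bands, from dim to bright, were -0.08, 0.08 and 0.20, and those of other genes 0.02, 0.11 and 0.33. Under quantile scaling the other genes had 0.03, 0.03 and -0.01, and the members -0.06, 0.00 and -0.07. Small medians of the brightest other genes follow in part from that scaling itself. The rank correlation of level and difference across the 81 members was 0.58 in sham and 0.49 after radiation with the 75th percentile, and 0.13 and -0.03 with quantile scaling.

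**Figure D3:**
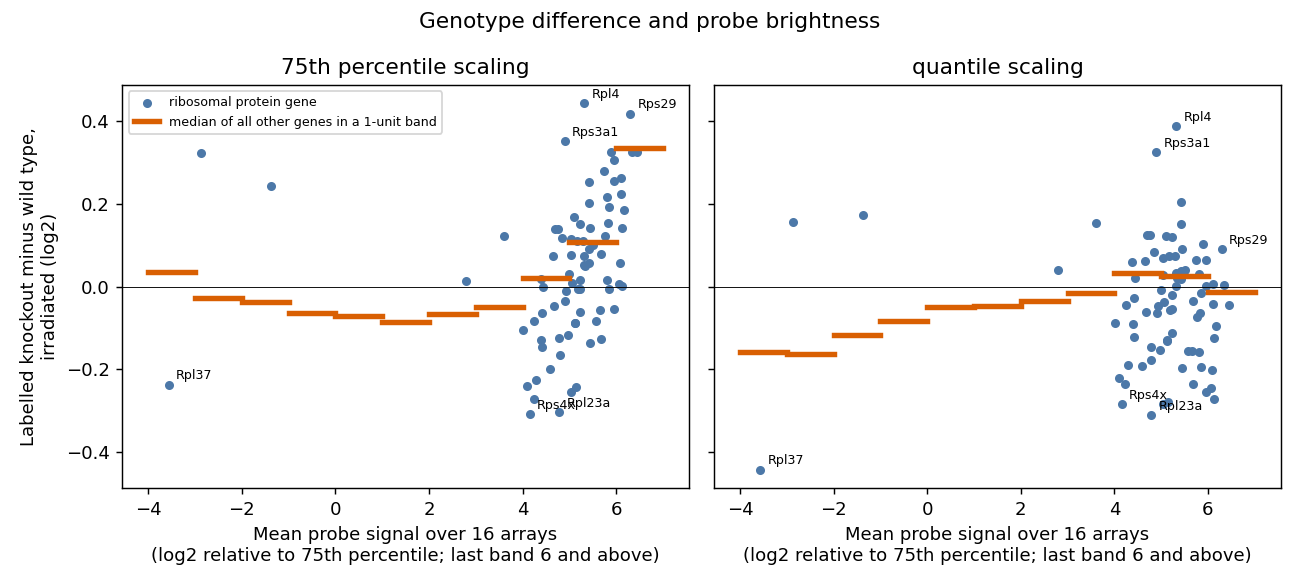
Difference between irradiated labelled knockout and wild-type mice against mean probe signal, both on a log2 scale, for the 81 ribosomal protein genes (points) and as the median of all other genes in bands 1 unit wide (orange). With 75th percentile scaling the other genes climb from 0.02 at a level of 4 to 5 to 0.33 at 6 or more, with quantile scaling they stay between -0.01 and 0.03 there, and Rpl4 lies above its band in both.

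Markers of excitatory neurons had a median genotype difference of 0.31 in sham and 0.33 after radiation (0.29 and 0.28 with quantile scaling), and 0 of 9 were called. The summed level of the 9 markers ran from 6.40 to 6.85 in sham and 6.54 to 7.07 in irradiated wild-type mice. In labelled knockout mice it ran from 6.95 to 7.27 and 7.05 to 7.31, which overlapped with wild type after radiation and not in sham. Of the 6 astrocyte markers, Slc1a2, a glutamate transporter, was called higher in labelled knockout mice after radiation (0.58, limma, Benjamini-Hochberg adjusted p = 0.0437), though not with quantile scaling. The list had a median difference of 0.01 there, and its summed level overlapped between the 2 groups. The part of these markers in the ribosomal protein differences was not tested.

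Within groups most members deviated together from mouse to mouse with 75th percentile scaling, and fewer did so with quantile scaling. The median deviation of the members on an array, from each gene's mean over 16 arrays, was -0.145, -0.033, -0.027 and -0.017 in sham and -0.044, -0.093, 0.037 and 0.058 in irradiated wild-type mice. Labelled knockout mice had -0.017, 0.147, 0.066 and -0.038 without and -0.197, 0.087, 0.057 and 0.188 with radiation. The last group therefore held both the lowest and the highest array, and the 4 groups overlapped. Under quantile scaling all 16 values lay between -0.079 and 0.049. Within groups, 79 members with a value on every array had a median correlation of 0.80 with the median of the other members over 16 arrays, and 66 exceeded 0.5. Quantile scaling gave a median of 0.43, 34 exceeded 0.5 and 19 were below 0. The arrays share their scaling constants, so these correlations are descriptions. The lowest with the 75th percentile was Rps23rg1 (-0.36) and the highest Rps23 (0.97).

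**Figure D4:**
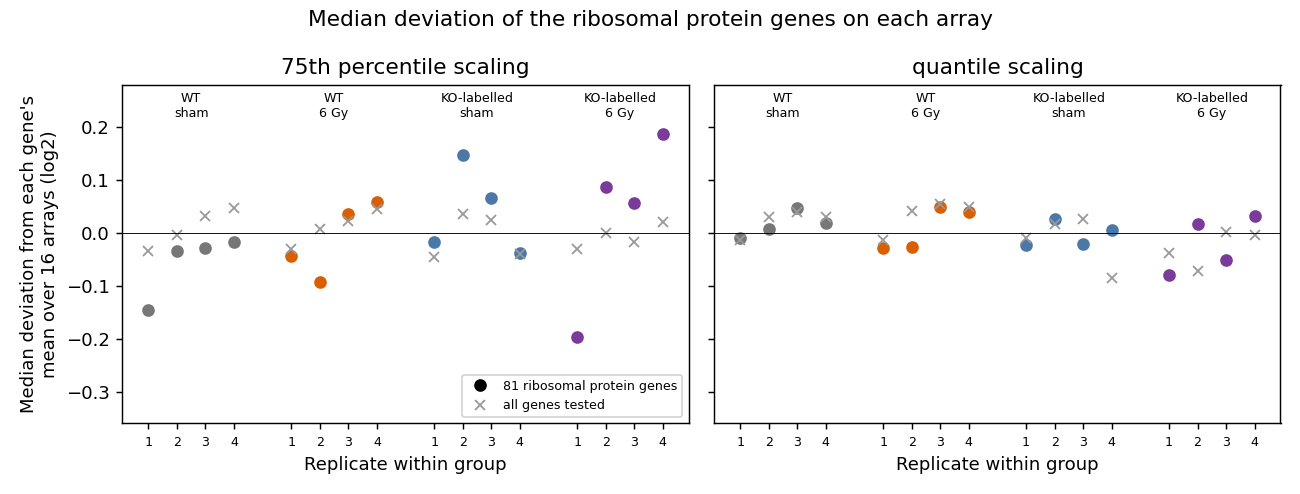
Median deviation of the 81 ribosomal protein genes (dots) and of all genes tested (crosses) on each of the 16 arrays, in log2 units from each gene's mean over all arrays, with 75th percentile scaling (left) and quantile scaling (right). On the left the irradiated labelled knockout arrays run from -0.197 to 0.188, and on the right all 16 lie between -0.079 and 0.049.

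Different probes of 1 gene gave differences whose median gap was near the members' median radiation difference. For 61 further probes of 45 members, the median absolute gap to the brightest probe was 0.04 for radiation in wild type, 0.06 for radiation in labelled knockout, 0.08 for genotype in sham and 0.11 for genotype after radiation. In these comparisons 42, 46, 47 and 45 of the 61 had the sign of the brightest probe. The widest radiation gap was in Rps15a in labelled knockout mice (0.47). The widest genotype gaps were in Rps23rg1 for genotype in sham (0.15 and -0.60, the second probe being well above background on 13 of 16 arrays) and in Rpl7a for genotype after radiation (-0.25 and 0.28). The sign of the genotype difference of these 2 genes therefore depended on the probe.

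Genes that work with the ribosome had 3 calls between genotypes and, apart from Rps27l, none with radiation. Fau and Rack1, which encode small-subunit proteins under other names, were called in no comparison and had wild-type radiation differences of 0.07 and 0.03. Of 5 other paralogues, Rps27l was the 1 called with radiation. Among 20 genes listed for messages with a TOP motif (translation factors with Tpt1, Npm1, Hnrnpa1, Nap1l1 and Vim), 0 were called with radiation. Between genotypes after radiation, Eef1a1, which brings aminoacyl-tRNA to the ribosome, was called higher (0.43, limma, Benjamini-Hochberg adjusted p = 0.0347) and Pabpc1, which binds poly(A) tails, lower (-0.43, adjusted p = 0.0382), with both scalings, or 2 of 20 against 1.18% of all genes. Of 60 ribosome biogenesis factors, Ipo7, an importin that carries ribosomal proteins into the nucleus, was called higher in that comparison (0.88, adjusted p = 0.0193), and 0 were called with radiation. Of 20 genes of RNA polymerase I and its factors, 20 mTOR and TOP regulators and 15 ribosomal protein chaperones and regulators of p53 by free ribosomal proteins, 0 were called in any comparison.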

How the data were processed

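Per the file headers, the authors extracted each 1-channel array with Agilent Feature Extraction, and its processed signal is an intensity, corrected for background and spatial trend within each array but not scaled between arrays. The deposited value table holds a score per feature with mean 0 and SD 1 in every column (median -0.08). The sources used here do not give its making. Each column followed that array's own log signal, and the table served as an alternative. For each array, processed signals were put on a log2 scale and the 75th percentile subtracted, control spots were left out, outlier spots set to missing and spots of a probe averaged. Probes well above background on at least 4 arrays were kept (39589 of 56605), and 32994 probes were named through the RefSeq gene table. The brightest kept probe stood for a gene.

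The 17436 genes were fitted with limma 3.58.1 (R 4.3.3), with 1 mean per group over 16 arrays (12 residual degrees of freedom), 6 two-sided contrasts and Benjamini-Hochberg adjustment within each, and called at an adjusted p under 0.05. The number of arrays limits the precision. The fit was tested on simulated data. Single-gene values follow a naming rule: called members, the 4 highest and 4 lowest of each two-group comparison, members with a stated role and members within 20 Mb of Neil1, with Rps27l and the pathway genes that were called or had the smallest p. The rest are named for array overlap or probe gaps, after their values were seen. Single values of a few genes are not reported here. The members, lists and rules were chosen with earlier results of these data known. Alternatives covered scaling, normexp background correction (on the median spot signal, since the files hold no mean signal), filters, probe rules, models, the deposited scores and leaving out arrays. The replicate number is also the slide column. Of 24 same-numbered pairs of arrays, 11 had a correlation of deviations above 0.1 (-0.60 to 0.52, median 0.07 against -0.05 for other pairs), so numbers were not used as pairs.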

Additional observations from a re-analysis of the deposited data

Results flagged for a closer look

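Among 138 sets of 4 arrays examined for 33 members and the array medians, 2 held an array far from the others by Dixon's criterion, which chance alone meets in about 1 set in 20. Rpl37rt was 6.29 on labelled knockout sham replicate 1 and 6.62 to 6.64 on the other 3 arrays. The members' median deviation with 75th percentile scaling was -0.145 on wild-type sham replicate 1 and -0.033 to -0.017 on the others.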

How the results depend on the processing

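The count of members called was 0 in every alternative run for radiation in wild type, radiation in labelled knockout, genotype in sham and the interaction. For radiation averaged over genotypes it was 1 (Rps20) with normexp background correction and 0 otherwise. For genotype after radiation the count of 1 became 0 with quantile scaling, centring on the median, a fit of the 2 groups only, the deposited scores, a 1.5-fold minimum and in a fit that left out the 2 dimmest arrays (mice 3 and 4 of the irradiated labelled knockout group, a choice made after seeing the data). It became 2 with a trended prior variance (Rpl4 and Rps29), 3 with no filter on dim probes or the percentile taken over probes above background on all arrays (Rpl4, Rpl31 and Rps29), 3 with array weights (Rpl4, Rps29 and Rps3a1) and 8 with normexp (also Rpl18, Rpl23a, Rplp0 and Rps4x, with Rpl31, Rps29 and Rps3a1). Leaving out 1 array gave 0 to 2. The replicate number as a block gave 2 (Rpl4 and Rps29). With it, the other counts stayed at 0. The number is the slide column and no stated pairing of mice, and 5 of 16 arrays correlated best with an array of their own number. Rpl4 after radiation kept its direction in all 30 alternatives and passed the test in 19 (adjusted p from 0.00649 to 0.164). The members' median for genotype after radiation was -0.073 with centring on the median and -0.061 without the 2 dimmest arrays, and the interaction median was then -0.148. The other medians moved by less than 0.103, the SD of array medians within groups. Setting saturated spots to missing was not run, since 0 spots were saturated. The deposited scores have their own scale, so their medians are not set beside these. With 4 arrays a group the median standard error of a member's difference was 0.103, which limits what could be seen.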

Other observations

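The 78 mitochondrial ribosomal protein genes, which serve the separate ribosome of that organelle, had 0 calls in any comparison (limma, Benjamini-Hochberg). Their median radiation difference was 0.07 in wild type, with 69 of 78 above 0, and -0.02 in labelled knockout, with 34 above 0. Between genotypes it was -0.03 in sham and -0.14 after radiation, with 13 of 78 above 0 and 20 at an unadjusted p under 0.05 (16.6% of all genes). Quantile scaling put the last value at -0.11, with 16 above 0. The cytosolic members had 0.05 and -0.04 in that comparison with the 2 scalings. Mrps26, a small-subunit protein, had the smallest p (-0.57, adjusted p = 0.0565).

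Of genes outside the family, the 10 whose values most closely followed the members' median over 16 arrays, after group means were removed, included Snrpd1, Gm6525, Uqcr10, Tmsb4x, Rpl36al, Atp5h, Atp5j2, Sod1 and Nme2 with the 75th percentile (r from 0.94 to 0.95). With quantile scaling they were Arhgap5, Fmc1, Isg20l2, Spcs2, Gldc, Ptp4a2, Sptssa, Exosc7, Zfp638 and Orc6, so no gene was on both lists.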
